A study of Mus musculus with 2 samples.

Results

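Antigen presentation by the major histocompatibility complex (MHC) was examined in whole gastrocnemius muscle through 10 genes, 6 of the class I pathway (H2-K1, H2-D1, B2m, Tap1, Tap2 and Tapbp) and 4 of the class II pathway (Cd74, H2-Aa, H2-Ab1 and H2-Eb1). They are given by name as members of these pathways, and all 10 were found among the 34745 genes of the deposited count table. RNA sequencing gave 1 library per genotype, both from C57BL/6 mice aged 8 weeks. The flox/flox library came from mice whose Cipc gene, which encodes the CLOCK-interacting pacemaker protein, is flanked by loxP sites, and the scKO library from mice in which, by the series title, Cipc was deleted in satellite cells, the stem cells of muscle. The title also names the dystrophic mdx strain, but the sample labels do not, so the muscles are described here as labelled. The Cre driver, whether the flox/flox mice carried Cre, and the number of animals behind each library are not given in the labels.

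MHC class I molecules are carried by nearly all nucleated cells and show peptides of cytosolic origin to CD8 T cells. A heavy chain pairs with β2-microglobulin in the endoplasmic reticulum, where the TAP transporter delivers the peptides and tapasin holds TAP and the empty class I molecule together. MHC class II molecules are pairs of an α and a β chain, made mainly by dendritic cells, macrophages and B cells. The invariant chain CD74 occupies their groove until it is degraded in endosomes and replaced by peptides of extracellular origin. Resting muscle fibres are known for very low class I on their surface, and vessels and leukocytes of the muscle carry more.

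With 1 library per group there is no replicate check, no p-value is given, and every difference compares these libraries and not the genotypes. Brackets after a log2 ratio of scKO over flox/flox give its exact 95% interval, which covers counting error only. A gene is called tested, meaning that its interval was evaluated, where its counts in both libraries summed to at least 20. Where a pair of values follows a gene, flox/flox comes first. The libraries held 14727219 counts (flox/flox) and 13842100 counts (scKO), and 12662 genes were tested. The labels could be checked on the tissue and on the deleted gene: 10 muscle fibre markers together took 162391 and 155654 CPM (counts scaled to a library total of 1000000), with 8 intervals below 0, 2 above and a median log2 ratio of −0.08. These markers have very high counts, and so narrow intervals. Over all tested genes, 12.3% of intervals lay below 0 and 12.8% above. Cipc went from 658 counts to 111 (log2 ratio −2.51, −2.82 to −2.22). These are counts of the whole muscle. In which cells Cipc RNA was lower was not tested, so the check does not reach the satellite cells named in the title.

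The stretches that precede the start sites of the members frame the comparison of the classes, because MHC genes are known to be controlled through short promoter elements: the NF-κB and interferon response elements of class I genes, and the X and Y boxes bound by the RFX and NF-Y complexes with the coactivators CIITA (class II) and NLRC5 (class I). RefSeq windows on GRCm38.p6, from 250 bases before to 50 bases after the start, matched 7 of the 10 members. The starts are those of RefSeq. The gene positions given below are from GENCODE, which begins H2-D1 at 35262730, so the stretch shown for H2-D1 lies inside that gene. The 200 bases before the start are shown for the class I genes whose intervals lay above 0 and for the class II chains with a window, 5′ to 3′ on the strand of the gene, with every match of the motifs described afterwards in capitals.
H2-K1 at chr17:34000348-34000547, minus strand: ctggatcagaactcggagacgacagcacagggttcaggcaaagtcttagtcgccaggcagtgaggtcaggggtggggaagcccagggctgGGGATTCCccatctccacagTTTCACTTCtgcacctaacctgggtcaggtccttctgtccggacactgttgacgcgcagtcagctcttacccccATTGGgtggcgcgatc
H2-D1 at chr17:35262894-35263093, plus strand: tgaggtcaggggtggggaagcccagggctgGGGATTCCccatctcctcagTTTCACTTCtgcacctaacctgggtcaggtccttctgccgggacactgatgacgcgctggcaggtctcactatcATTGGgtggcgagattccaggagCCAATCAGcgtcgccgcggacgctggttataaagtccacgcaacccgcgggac
B2m at chr2:122147487-122147686, plus strand: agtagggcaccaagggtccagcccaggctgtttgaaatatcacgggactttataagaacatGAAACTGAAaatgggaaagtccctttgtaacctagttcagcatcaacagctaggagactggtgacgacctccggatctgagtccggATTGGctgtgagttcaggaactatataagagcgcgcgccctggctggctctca
H2-Aa at chr17:34287824-34288023, minus strand: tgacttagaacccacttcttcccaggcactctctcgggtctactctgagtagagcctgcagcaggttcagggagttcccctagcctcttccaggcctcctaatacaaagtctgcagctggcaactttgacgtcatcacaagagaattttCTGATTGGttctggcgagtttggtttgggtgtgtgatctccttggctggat
H2-Eb1 at chr17:34305667-34305866, plus strand: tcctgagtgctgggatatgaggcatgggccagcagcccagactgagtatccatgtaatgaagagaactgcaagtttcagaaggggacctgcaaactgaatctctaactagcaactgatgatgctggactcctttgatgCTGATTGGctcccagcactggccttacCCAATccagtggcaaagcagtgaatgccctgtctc

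Both strands of all windows were searched for 6 short motifs. The letters GGGATTCC, part of an NF-κB-like element, occurred in H2-K1 and H2-D1, 2 of the 7 members with a window, and in 1.06% of all 32851 windows. An interferon response element of the form GAANNGAAA was also found in H2-K1 and H2-D1, read on the other strand, against 7.52% of all windows. The form GAAANNGAA was found in B2m, against 8.56%. The Y box CTGATTGG occurred in 5 members (H2-K1, H2-D1, Tap1, H2-Aa and H2-Eb1) and in 4.10% of all windows. Its match in H2-K1 begins 8 bases after the start and so lies outside the stretch shown. In the other RefSeq window of H2-K1, which has a different start, it begins 6 bases before the start. In H2-Aa and H2-Eb1 it begins 51 and 62 bases before the start. The core ATTGG, which is contained in the Y box, occurred in all 7, against 37.4% of windows, and the X box core CCTAGCAA in none, against 1.36%. The windows of H2-K1 and H2-D1 were identical in 206 of 228 aligned columns (90.4%). A match describes letters in these windows and does not show that a factor binds there. Only these exact letters were searched. A window without a match can still hold a variant of the element, so the X box result does not show that these promoters lack an X box.

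The class I pair of heavy chain and β2-microglobulin was slightly higher in the scKO library. H2-K1, a classical heavy chain (ENSMUSG00000061232, GRCm38 chromosome 17, 33996017 to 34000347), received 563 counts, against 685 in the scKO library. Its log2 ratio was 0.33 (0.17 to 0.50), or 1.26-fold. H2-D1, the other classical heavy chain of this strain (ENSMUSG00000073411, chromosome 17, 35262730 to 35267499), had 984 and 1046 counts, a log2 ratio of 0.14 (0.01 to 0.27). Its interval only just left 0. B2m, which encodes β2-microglobulin (ENSMUSG00000060802, chromosome 2, 122147686 to 122153083), had 868 and 1000 counts, a log2 ratio of 0.26 (0.12 to 0.39). The heavy chains and their partner kept nearly the same proportion: the summed counts of H2-K1 and H2-D1 were 1.78 times those of B2m in flox/flox and 1.73 times in scKO, a ratio of these of 0.971 (0.865 to 1.09). The balance of H2-K1 to H2-D1 was 0.572 and 0.655, a ratio of 1.14 (0.991 to 1.32), with an interval that includes 1.

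The peptide loading members showed no difference beyond counting error. Tap1, a subunit of the peptide transporter (ENSMUSG00000037321), had 33 and 26 counts, a log2 ratio of −0.29 (−1.09 to 0.49). Tap2, the other subunit (ENSMUSG00000024339), had 126 and 134 counts, at 0.14 (−0.22 to 0.50). Tapbp, which encodes tapasin (ENSMUSG00000024308), had 322 and 340 counts, at 0.13 (−0.09 to 0.35). The interval is widest for Tap1, but those of Tap2 and Tapbp also hold the 0.33 of H2-K1. A change of that size was therefore not excluded for these genes at this depth. Tap2 and Tapbp had ratios close to the 0.14 of H2-D1, which has more counts and a narrower interval. Summed, the 3 genes gave 481 and 500 counts, a log2 ratio of 0.11 (−0.08 to 0.29), and their ratio to H2-K1, H2-D1 and B2m together changed by a factor of 0.919 (0.800 to 1.06). Some exons of these genes overlap exons of others, and the strand setting of the counting is not given. The antisense gene Gm19412 covers 24.9% of the merged exons of Tapbp and had 2 and 3 counts, and Zbtb22, on the same strand, covers 4.11% and had 227 and 180. Psmb9 covers 3.87% of the merged exons of Tap1. On the opposite strand of Tap2, Gm15821 covers 14.1% and Gm20496 4.36% of its merged exons, both at 0 counts in both libraries.

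Of the class II members, only the invariant chain gene had an interval that excluded 0. Cd74 (ENSMUSG00000024610, chromosome 18) had 352 counts against 234 in the scKO library, a log2 ratio of −0.54 (−0.78 to −0.30), or 0.689 times the flox/flox level. H2-Aa, the α chain of I-A (ENSMUSG00000036594, chromosome 17, 34282744 to 34287823), had 114 and 117 counts, at 0.09 (−0.30 to 0.47). H2-Ab1, its β chain (ENSMUSG00000073421, chromosome 17, 34257689 to 34269419), had 120 and 99 counts, at −0.23 (−0.63 to 0.17). H2-Eb1, the β chain of I-E (ENSMUSG00000060586, chromosome 17, 34305867 to 34316674), had 95 and 82 counts, at −0.16 (−0.61 to 0.28). The 3 chains all had intervals that include 0, and their sum of 329 and 298 counts had a log2 ratio of −0.09 (−0.32 to 0.14). Cd74 was also lower relative to them: it had 1.07 times their summed counts in flox/flox and 0.785 times in scKO, a ratio of 0.734 (0.581 to 0.928). The ratio of α to β chain of I-A, 0.950 and 1.18, changed by a factor of 1.24 (0.844 to 1.83). C57BL/6 mice are known to lack the I-E α chain, and its gene H2-Ea-ps was at 0 counts in both libraries, which allows up to 0.204 and 0.217 CPM.

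**Figure D1:**
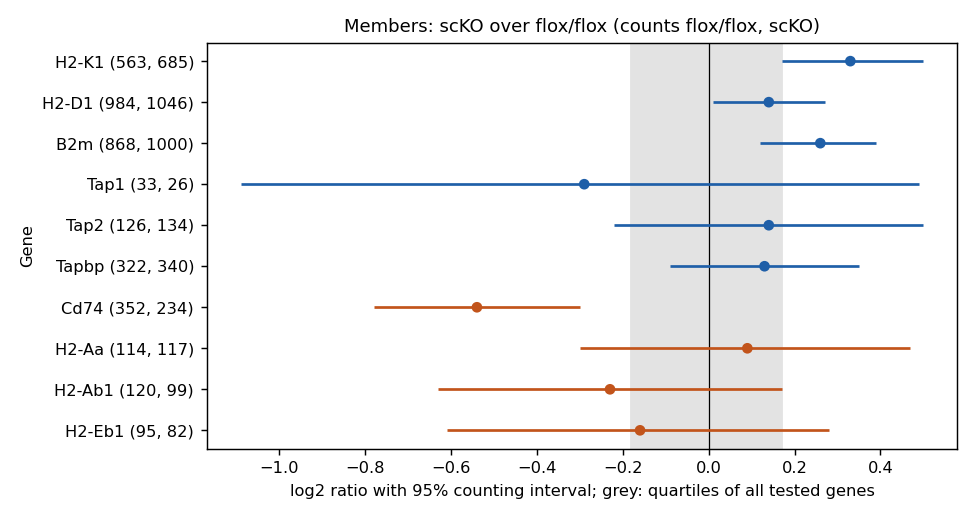
Log2 ratio of scKO over flox/flox for the 10 members (x axis; points with exact 95% counting intervals; class I blue, class II orange; the counts of both libraries stand after each name), with the quartiles of all tested genes, −0.18 and 0.17, as a grey band. H2-K1, H2-D1 and B2m lie above 0 and Cd74 below, while the other 6 intervals include 0.

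Counted together, 3 of 6 class I members had intervals above 0 and none below, and 1 of 4 class II members had an interval below 0 and none above. Over all tested genes 12.8% had intervals above 0 and 12.3% below. A narrow interval comes with a high count, so genes of similar depth are the closer background. Between 1000 and 2500 summed counts, where H2-K1, H2-D1 and B2m lie, 19.3% of genes had intervals above 0. Between 400 and 1000, where Cd74 lies, 12.0% had intervals below 0. None of the 10 members reached a 2-fold difference. Of all tested genes, 3.32% did so with an interval that excluded 0. The median log2 ratio was 0.14 for class I and −0.19 for class II, and 0.002 for all tested genes. Intervals above 0 made up 50.9% of all intervals that excluded 0, and 63.1% when libraries were scaled by total counts.

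The balance of the classes does not depend on how the libraries are scaled. The class II members together had 0.235 counts per class I count in flox/flox (681 and 2896 counts) and 0.165 in scKO (532 and 3231 counts). The ratio of these was 0.700 (0.617 to 0.794). Class I was higher in sum, with a log2 ratio of 0.21 (0.14 to 0.28), and class II was lower, at −0.30 (−0.47 to −0.14). The counts of Cd74 alone per class I count changed by a factor of 0.596 (0.499 to 0.711). Without Cd74 the class II to class I ratio changed by a factor of 0.812 (0.686 to 0.960). Cd74 made up 51.7% of the class II counts in flox/flox (exact binomial interval 47.9% to 55.5%) and 44.0% in scKO (39.7% to 48.3%).

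**Figure D2:**
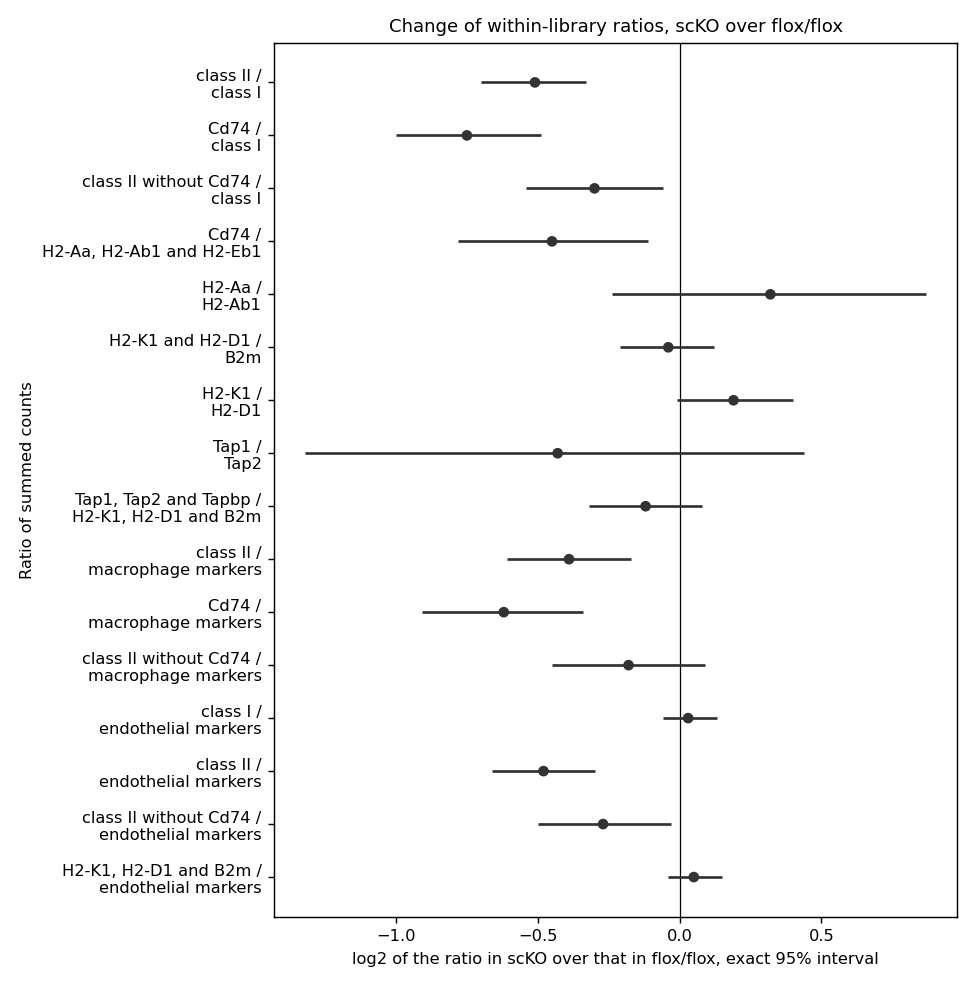
Change between the libraries of ratios taken within each library (x axis, log2 of the ratio in scKO over that in flox/flox; points with exact 95% intervals). The ratios of class II and of Cd74 to class I, macrophage or endothelial genes shown have intervals below 0, as has Cd74 to the other class II chains. Without Cd74 the interval of class II to macrophage markers includes 0, as do those among class I genes, of class I to endothelial markers and of H2-Aa to H2-Ab1.

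Levels of different genes were compared as CPM per kilobase of merged exons. B2m was the most abundant member at 68.5 in flox/flox and 84.0 in scKO, above 97.0% and 97.4% of the tested genes. H2-D1 followed at 25.9 and 29.3. H2-K1 and Cd74 stood close together in flox/flox, at 13.0 and 14.2, and in scKO H2-K1 stood at 16.8 with Cd74 below it. Their order within a library was not tested. Tapbp stood at 6.03 and 6.77. H2-Eb1 (3.32 and 3.05), H2-Ab1 (3.17 and 2.79), Tap2 (2.26 and 2.56) and H2-Aa (2.04 and 2.23) lay close together, and the order among these neighbours was not tested. Tap1 was the lowest, at 0.409 and 0.343. The deposited FPKM values (fragments scaled by gene length and library size) place some genes differently, because their implied gene length is not the merged exon length. For H2-K1 it was 7271 bases against 2938, so its deposited FPKM of 5.26 and 6.81 lay below those of Cd74, 11.9 and 8.44, in flox/flox and in scKO. For H2-Eb1 it was 1184 bases against 1944, and its flox/flox FPKM of 5.45 was above the 3.46 of H2-Ab1. Ratios between the libraries are not affected by the length.

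**Figure D3:**
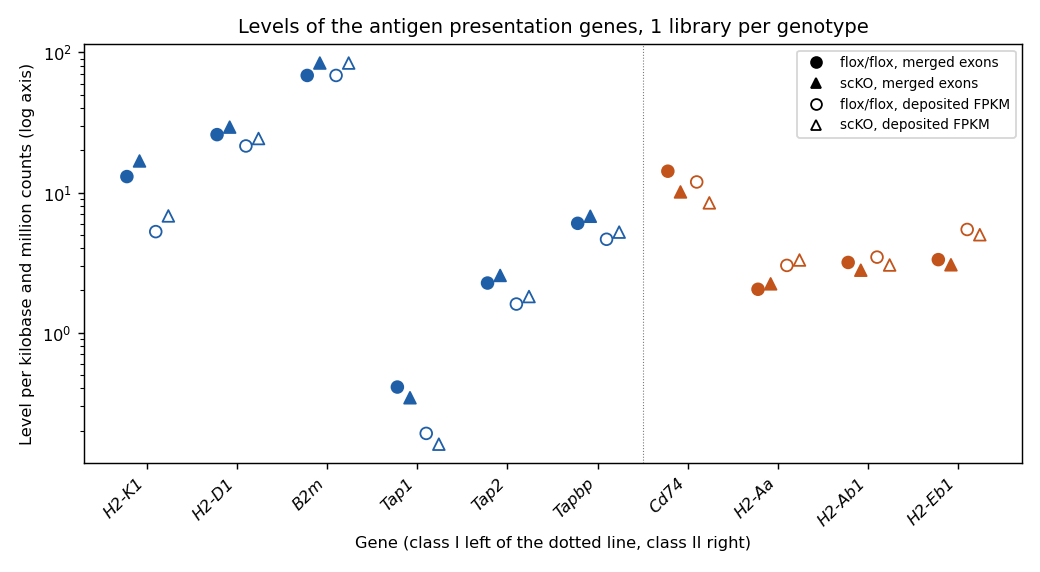
Level of each member in CPM per kilobase (log y axis) in flox/flox (circles) and scKO (triangles), from merged exons (filled) and as deposited FPKM (open); class I blue, class II orange, 1 library per point. B2m is highest and Tap1 lowest on both scales, and H2-K1 is the gene whose scales differ most visibly.

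The chaperones and proteasome genes that supply class I with peptides mostly did not differ beyond counting error. Of 12 genes listed, 11 were tested, 1 had an interval above 0 and none below, and their median log2 ratio was 0.05. The shares over all tested genes were 12.8% above and 12.3% below. The gene above 0 was Canx, which encodes the chaperone calnexin (993 and 1099 counts, 0.20, 0.07 to 0.32). The immunoproteasome subunits Psmb8 (42 and 39 counts, −0.05, −0.72 to 0.61), Psmb9 (12 and 16 counts, 0.45, −0.71 to 1.68) and Psmb10 (73 and 73 counts, 0.05, −0.44 to 0.54) all had intervals that include 0. Nlrc5, the class I coactivator, had 29 and 23 counts (−0.28, −1.14 to 0.56).

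Among the other class I and class I-like heavy chains, 23 of 26 listed genes were in the table and 13 were tested, of which 2 had intervals above 0 and 1 below, with a median of 0.19. The shares over all tested genes were 12.8% above and 12.3% below. H2-Q7, a Qa-2 heavy chain, had 28 and 59 counts, a log2 ratio of 1.11 (0.45 to 1.83). H2-T24 had 18 and 34 counts, at 0.95 (0.10 to 1.88), and H2-M3, which presents formylated peptides, 17 and 9 counts, at −0.83 (−2.21 to 0.38). Mr1, which presents vitamin B metabolites to MAIT cells, was lower, with 490 and 351 counts (−0.43, −0.63 to −0.23). These heavy chains resemble each other. Of all distinct stretches of 50 bases in the transcripts of H2-Q7, 26.5% also occur in transcripts of another gene, against 9.63% for H2-K1, 12.8% for H2-D1 and none for B2m, Cd74, H2-Ab1 and H2-Eb1. The handling of reads that fit more than 1 gene is not stated in the sources used here, so the values of H2-Q7 are uncertain, and those of H2-K1 and H2-D1 less so.

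Of 21 class II loading and regulation genes listed, 20 were in the table and 13 were tested. Of these, 4 had intervals above 0, 2 below and 7 intervals that include 0, with a median of 0.12, beside 12.8% above and 12.3% below over all tested genes. Of the RFX complex that binds the X box, Rfxank (71 and 127 counts, 0.89, 0.46 to 1.33) and Rfxap (155 and 194 counts, 0.37, 0.06 to 0.69) were higher and Rfx5 (87 and 52 counts, −0.69, −1.22 to −0.18) lower. The NF-Y subunit Nfyc was higher (248 and 318 counts, 0.41, 0.17 to 0.66), while Nfya and Nfyb had intervals that include 0. March8 (also Marchf8), a membrane ubiquitin ligase that can send class II molecules to degradation, was higher (334 and 497 counts, 0.62, 0.42 to 0.83). Lgmn, an endosomal protease that takes part in antigen and invariant chain cleavage, was lower (540 and 396 counts, −0.40, −0.59 to −0.21). The peptide editor genes H2-DMa (21 and 17 counts, −0.25, −1.27 to 0.74) and H2-DMb1 (16 and 7 counts, −1.09, −2.66 to 0.22) had too few counts to resolve such differences. Ciita, the class II coactivator, had 4 and 2 counts and was not tested. Exons of Nr2c2ap (29 and 36 counts) cover 33.8% of the merged exons of Rfxank on the opposite strand. For Rfx5 the partner B230398E01Rik, at 0 counts in both, covers 26.8%.

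**Figure D4:**
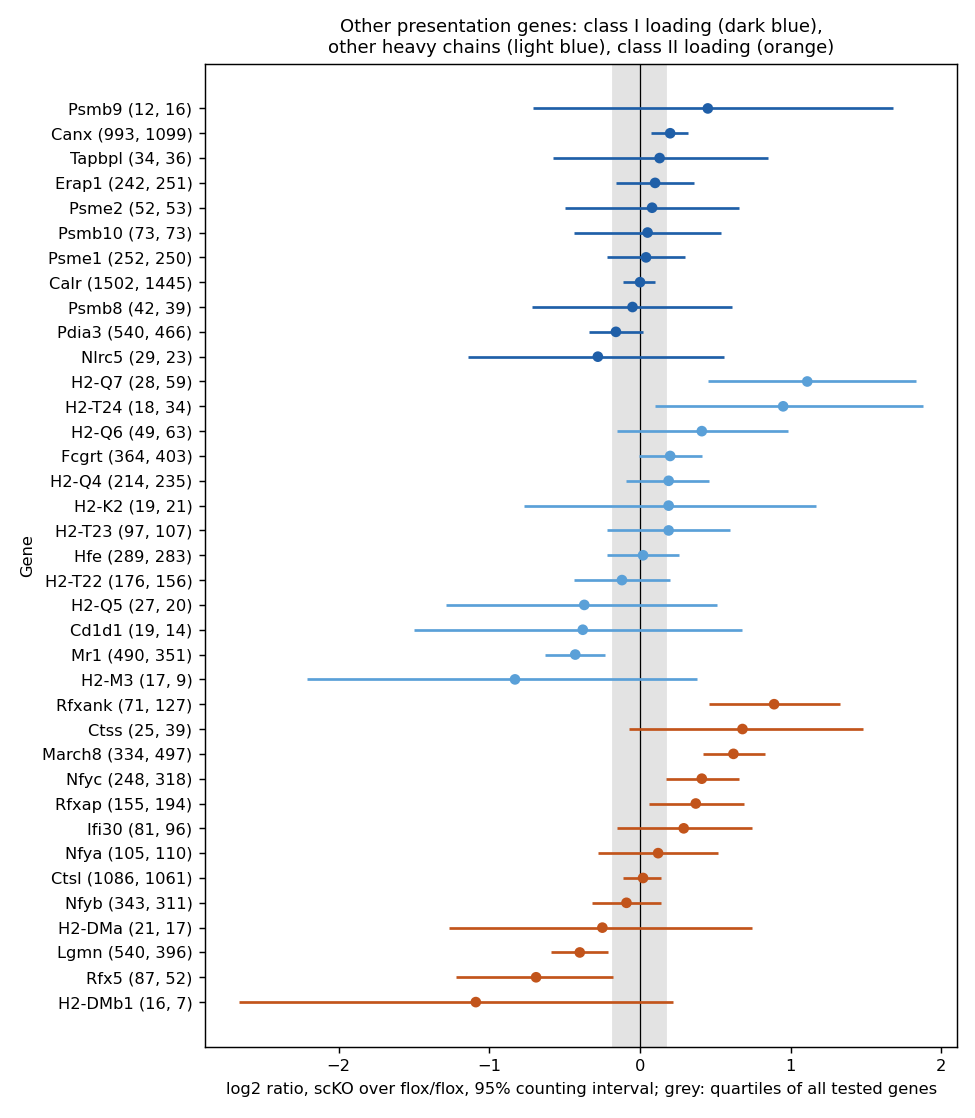
Log2 ratio of scKO over flox/flox (x axis; points with exact 95% counting intervals; counts after each name) for the tested genes outside the 10 members, with class I loading and peptide supply in dark blue, other heavy chains in light blue and class II loading and regulation in orange. The grey band holds the quartiles of all tested genes, and Rfxank, March8 and H2-Q7 lie above it with their whole interval. Mr1 and Lgmn lie below it with theirs.

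Markers of the cells that could carry these RNAs differed in how they stood. In bulk RNA, fewer cells of a type and less RNA per cell cannot be told apart. Over all tested genes, 12.8% of intervals lay above 0 and 12.3% below. Of 12 endothelial markers, 3 had intervals above 0 (Flt1 at 0.45, Tek at 0.33 and Cdh5 at 0.13) and none below. Their summed level was 340 and 394 CPM, a log2 ratio of 0.17 (0.12 to 0.23). In counts the sum went from 5009 to 5458, and Flt1 alone from 834 to 1102. Of the 12 ratios, 8 were over 0 and 4 under. The factors relative to the endothelial markers were not computed without Flt1. Relative to these markers, the class I sum changed by a factor of 1.02 (0.961 to 1.09) and the class II sum by 0.717 (0.635 to 0.809). Of 16 macrophage markers, 14 were tested, with 2 intervals above 0 (Cd163 at 0.57 and Lyve1 at 0.65) and 2 below (C1qc at −0.58 and Folr2 at −0.93). The ratios of C1qc and Folr2 were below the −0.54 of Cd74. Of the 14 ratios, 7 were over 0 and 7 under, so the sum pools macrophage markers that differed in both directions. Their summed level was 55.6 and 60.6 CPM, a log2 ratio of 0.09 (−0.05 to 0.23), and relative to it Cd74 changed by a factor of 0.649 (0.533 to 0.789) and class II as a whole by 0.763 (0.655 to 0.887). Class II without Cd74 changed by 0.884 (0.732 to 1.07) relative to the macrophage markers, with an interval that includes 1, and by 0.831 (0.705 to 0.980) relative to the endothelial markers. The general leukocyte markers summed to 12.2 and 12.4 CPM, with none of 5 tested genes outside counting error. The part of these cells in the results was not tested.

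Most markers of dendritic, B, T and NK cells were near the limit of detection, unlike the macrophage markers. Of 13 dendritic cell markers only Zbtb46 (106 and 92 counts) and Irf8 (53 and 77 counts, 0.59, 0.07 to 1.12) were tested, and both are also made by other cells. Flt3 had 0 and 1 counts, Xcr1 0 in both and Clec9a 2 and 1. The B cell markers without Ighm summed to 27 and 23 counts over 10 genes, whereas the immunoglobulin gene Ighm had 772 and 1717 (1.20, 1.08 to 1.33). The T and NK cell markers summed to 12 and 4 counts, with Cd3e, Cd4 and, from the class I list, Cd8a at 0 in both.

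Interferon response genes, many of which respond together with class I genes, were listed together with the interferon receptor genes Ifngr1, Ifngr2, Ifnar1 and Ifnar2. Of the 27 genes, 23 were tested, with 6 intervals above 0 and 1 below and a median of 0.10. The receptor gene Ifnar1 (0.41, 0.11 to 0.72) was among those above 0. The shares over all tested genes were 12.8% above and 12.3% below. Higher were Rsad2 (19 and 64 counts, 1.78, 1.05 to 2.62) and Socs1 (11 and 30 counts, 1.46, 0.46 to 2.64). So were Ifit3 (27 and 54 counts, 1.04, 0.36 to 1.77) and Cxcl9 (21 and 36 counts, 0.81, 0.01 to 1.68). The regulator Irf1, which can activate class I promoters, was lower, at −0.50 (−1.02 to −0.01).

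Of the 10 members, 8 lie on chromosome 17 in the H2 complex, between Tapbp and H2-D1 (33915899 to 35267499, 1.35 Mb). Of the 59 other tested genes in that span, 5 had intervals above 0 and 8 below, beside 12.8% and 12.3% of all tested genes, and their median log2 ratio was −0.01, with quartiles of −0.20 and 0.19. In order of position they are Tapbp, H2-K1, Tap1, Tap2, H2-Ab1, H2-Aa, H2-Eb1 and H2-D1, so the class II chains form 1 block with class I members on both sides.

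**Figure D5:**
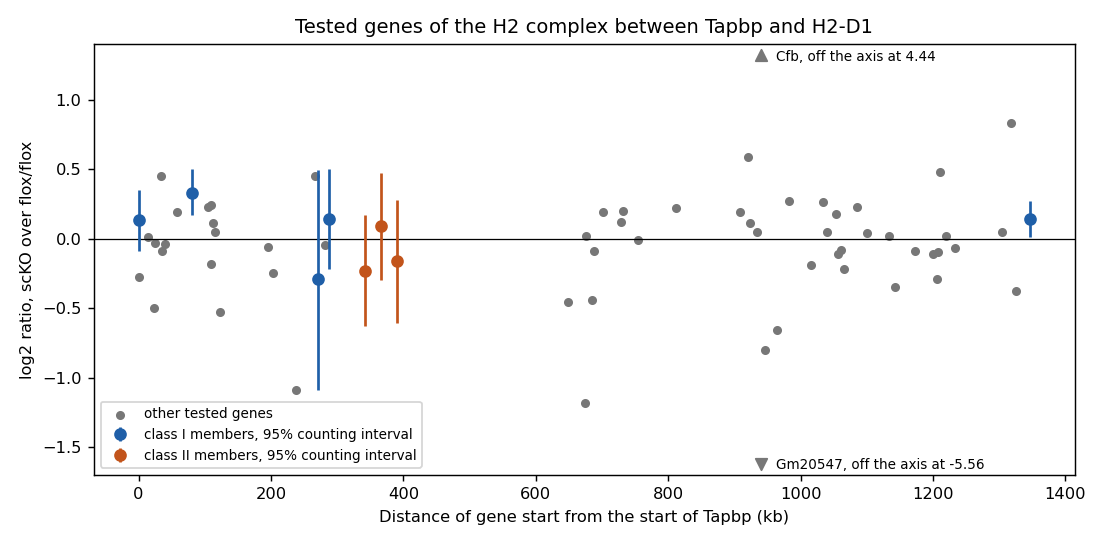
Log2 ratio of scKO over flox/flox (y axis) of the 67 tested genes between Tapbp and H2-D1 against the distance of their start from that of Tapbp (x axis, kb), with class I members in blue and class II members in orange (95% counting intervals) and other genes in grey. Most genes lie near 0, and 2 grey triangles mark Cfb and Gm20547, off the axis at 4.44 and −5.56.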

How the data were processed

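Total RNA of 1 flox/flox and 1 scKO gastrocnemius library was sequenced. The authors deposited raw counts per Ensembl gene for both libraries and FPKM values, per the file headers. CASAVA, the aligner HISAT2 2.0.4, the assembler StringTie 1.3.0 and the build GRCm38 are named in the submitters' processing notes, without order. The annotation release, strand setting and treatment of reads matching several genes are not given in the sources used here. The length implied by the deposited FPKM and the counts agreed between libraries within 0.0198%, so the FPKM carry no separate measurement.

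Symbols (34267 of 34745 identifiers) came from a GENCODE-based table, and positions, merged exons and transcripts from GENCODE M21 (GRCm38). Promoter windows are RefSeq's. Libraries were scaled with TMM (edgeR 4.0.16, R 4.3.3). Log2 ratios used a prior count of 0.5. Intervals of a gene's ratio are conditional binomial (Clopper-Pearson), and those of a ratio between gene sums are conditional odds ratio intervals (scipy 1.17.1, Python 3.11.15). They and the limit for 0 counts (3 counts) cover counting error only. The code was tested on simulated data. The depth of 1 count was 0.0679 and 0.0722 CPM. The members and the gene lists (176 of 180 entries matched a row of the table, a gene reached through a second name counted once) were chosen with earlier results of these data known. Named genes were the members, any gene of the other presentation lists (always the 6 largest absolute ratios tested over these 3 lists together), up to 4 per marker list and genes at 0 that define a type. Further genes were named after their values were seen. Alternatives covered scaling (total counts, DESeq2 1.42.0), prior count, count minimum, interval level, FPKM and the composition of the classes. Levels per merged exon length, class II without Cd74 over cell markers and the motif GAANNGAAA were added after seeing the data.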

Additional observations from a re-analysis of the deposited data

How the results depend on the processing

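With 1 library per genotype no library could be left out and no spread between animals estimated. For the same reason no paired analysis was possible. Under the scalings, the prior count of 5 and the FPKM scale, each member's log2 ratio stayed within its counting interval. A scaling moves all genes by the same amount. The median over all tested genes was 0.040 with total counts and −0.007 with DESeq2, against 0.002. Such shifts are small beside the intervals, so for the scalings this outcome could hardly have differed and is not support. With DESeq2's size factors the lower bound of H2-D1 came to 0.00, and with 99% intervals 2 of the 3 class I members stayed above 0. The median log2 ratio ranged from 0.13 to 0.18 for class I and from −0.20 to −0.12 for class II. The factor by which the class II to class I ratio changed, 0.700, was 0.812 without Cd74 and 0.794 as the difference of the medians of the log2 ratios. Both give Cd74, the member that was lowest, less weight. It lay between 0.661 and 0.710 under the other 6 compositions or units. Depth limits the statements on Tap1, Nlrc5, H2-DMa, H2-DMb1 and Ciita, each under 40 counts per library.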

Other observations

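The H2 complex also holds the complement genes C4b, C2 and Cfb. C4b, of the classical pathway, had 82 and 92 counts (log2 ratio 0.22, −0.23 to 0.66), and C2 had 22 and 12 (−0.80, −1.97 to 0.25). Cfb, complement factor B of the alternative pathway, had 1 count in flox/flox and 31 in scKO, while Gm20547, on the same strand, had 24 and 0. Exons of Gm20547 cover 79.5% of the merged exons of Cfb, and which of them a read was assigned to was not tested. Lower genes of the span included Ddx39b, an RNA helicase (1190 and 880 counts, −0.38, −0.51 to −0.26), Pfdn6, a prefoldin subunit (248 and 169 counts, −0.50, −0.79 to −0.21), and Gpsm3 (36 and 15 counts, −1.18, −2.19 to −0.31). These genes were chosen after their values were seen.

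March1, the other membrane ubiquitin ligase of the class II list, had 10 and 2 counts, under the minimum for a test.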
